A study of Homo sapiens with 3 samples.

Results

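Transcripts of 38 genes that encode centromere and kinetochore proteins were measured in cultured PC-3 cells, a long-used line from a human prostate carcinoma. The genes were chosen by name: the CENP proteins, the subunits of the NDC80, MIS12, SKA and RZZ complexes, KNL1 (also called CASC5) with its partner ZWINT, and the factors that load CENP-A. All 38 were matched by Entrez identifier, among 18331 identifiers listed in any library, and 37 had enough reads to be tested. The study held 3 libraries of polyadenylated RNA, each taken 7 days after infection with lentivirus that expresses short hairpin RNA (shRNA). Of these, 2 came from cells given KMT2D shRNA, labelled as KMT2D deficient, and 1 from cells given control shRNA, labelled as normal for KMT2D. All groups thus shared the lentiviral infection. Whether these were separate cultures, and whether numbers 1 and 2 stand for different hairpins, is not labelled, so p-values measure only the spread between these libraries, which may be technical.

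The kinetochore is the protein structure that joins a chromosome to the microtubules of the mitotic spindle. Its inner layer is built on CENP-A, a histone variant that marks the centromere, and on the constitutive centromere-associated network of CENP proteins. Its outer layer, the KMN network of KNL1, MIS12 and NDC80 complexes, binds microtubules and recruits the spindle checkpoint, with the SKA, RZZ and fibrous corona proteins joining in mitosis. Many of these genes are transcribed mostly in late cell cycle phases, and their RNA is commonly abundant in dividing tumour cells.

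Library totals were 5157550 and 5123817 estimated counts for KMT2D shRNA libraries 1 and 2 and 5559504 for the control. The RNA of KMT2D, the targeted gene, stood at 107 and 138 CPM (read counts scaled to a common library size) in the libraries given KMT2D shRNA and at 100.1 CPM in the control, so neither was below the control. Its log2 fold change was 0.29 (SE 0.18, edgeR quasi-likelihood test, Benjamini-Hochberg adjusted p = 0.227), and it turned to -0.66 (edgeR adjusted p = 0.00449) when the trend of fold change with transcript length, described below, was taken out. With a GC trend taken out as well it was -0.53 and did not pass (edgeR adjusted p = 0.0567). Directions below therefore refer to how libraries were labelled and say nothing of reduced KMT2D. The control had no replicate and was assumed to vary like the labelled libraries. The epithelial markers KRT8, KRT18 and EPCAM were present in all libraries (9.53 to 246 FPKM, which is scaled by transcript length and library total). KLK3, a prostate secretory gene, was listed in no library. Retina is named as the source in the series' design text, but RCVRN was listed in no library and PDE6B was at 1.08 to 2 FPKM. CD3E, VWF and CDH5 were at 0 counts, PTPRC, COL1A2, DCN and PDGFRB were at 11 counts or fewer, PECAM1 was at 2.73 to 2.90 FPKM and COL1A1 at 63.18 to 65.55 FPKM.

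In the libraries labelled KMT2D shRNA, 11 of the 37 tested kinetochore and centromere genes rose and 1 fell. The genes that rose were CENPI, KNL1, CENPF, CENPE, CENPA, NUF2, SKA2, KNTC1, CENPL, CENPN and HJURP, and the gene that fell was PMF1. The 11 were 29.7% of the members, against 16.5% of all 14016 tested genes called higher, and the 1 was 2.70% against 14.5% called lower. Most of the set moved little, and its median log2 fold change was 0.08, against -0.01 over all tested genes. The fold changes ran from -0.57 for CENPW to 2.16 for CENPI. Both labelled libraries lay above the control for 19 members and below it for 8, which compares with 41.5% and 42.8% of all tested genes. For the other 10 members the labelled libraries lay on opposite sides of the control, as for 15.7% of all tested genes. Fold change followed transcript length in these libraries, and with that trend removed 9 members rose, against 10.0% of all tested genes, and 1 fell, against 9.5%. The members called higher in both fits were the 8 genes CENPI, KNL1, CENPF, CENPE, CENPA, NUF2, SKA2 and CENPL. Over 11 alternative settings NUF2 kept its call in 3 and CENPL in 5, and the others kept theirs in 7 to 9. DESeq2 called CENPE, CENPF, CENPI and KNL1 higher, 4 of the 33 members to which it gave an adjusted p (6.91% of all genes with one were called higher). It called 0 members lower, against 4.24% of all genes. At an unadjusted p under 0.05 it had 0 members lower, where 1023 of all 14016 tested genes were. In bulk RNA a larger share of cells in mitosis and more RNA per cell cannot be told apart.

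**Figure D1:**
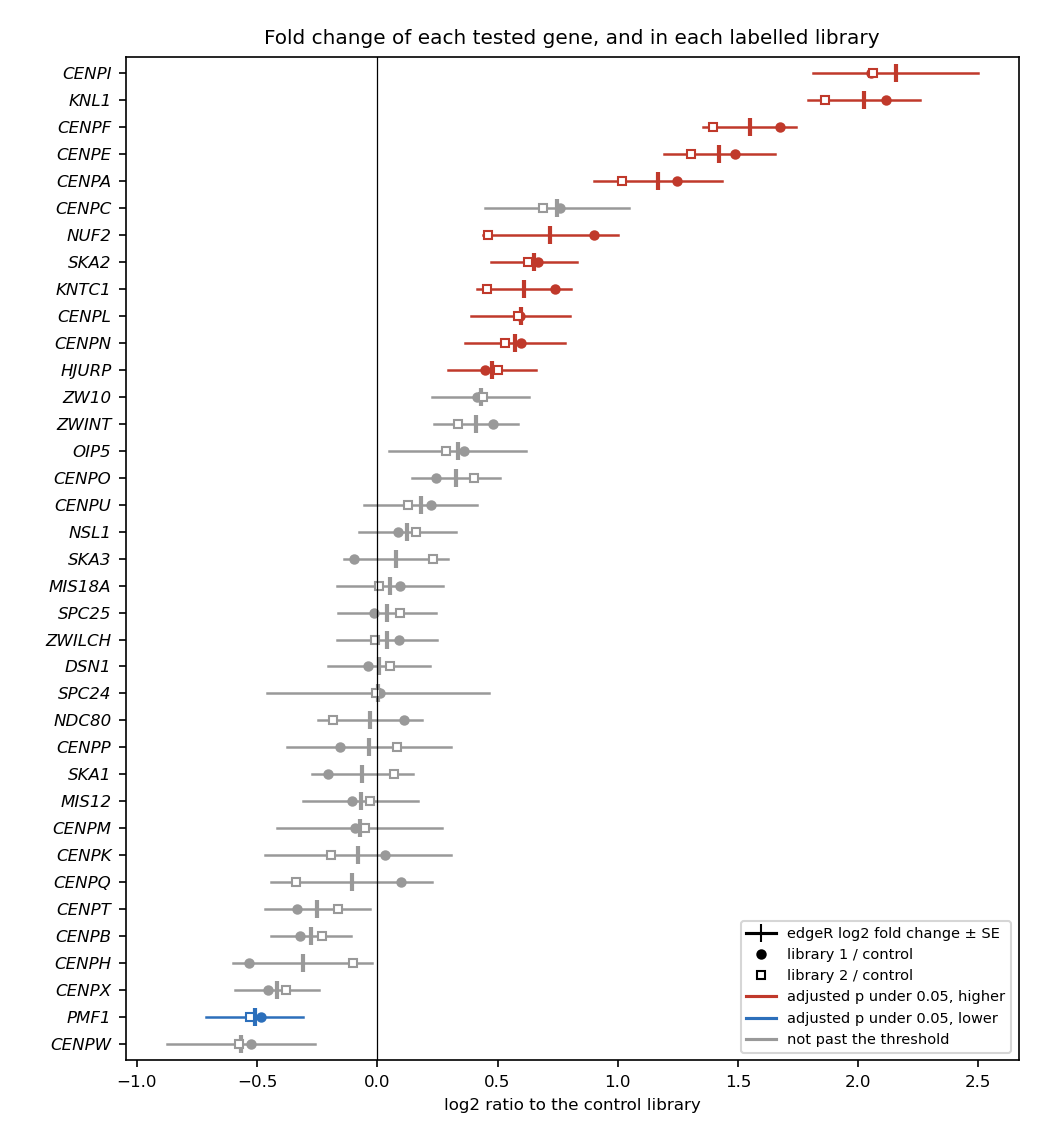
The log2 ratio to the control library (x axis) is drawn for each of the 37 tested genes (y axis), as the edgeR estimate ± SE (bars), in library 1 (circles) and in library 2 (open squares). CENPI, KNL1, CENPF, CENPE and CENPA stand apart at log2 fold changes of 1.17 to 2.16 in the fit, with both libraries above 1, and the libraries lie on opposite sides of 0 only in the middle of the order.

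Promoter windows from RefSeq (GRCh38.p14, 250 bases before to 50 after a gene's start) were found for 32 of the 38 genes. Late cell cycle promoters are known for a short element called the cell cycle genes homology region and for nearby CCAAT boxes, which are bound by the MuvB complexes and by NF-Y. The letters TTTGAA or TTCGAA, read on both strands, were present in 16 of 36 member windows (44.4%), against 16.4% of 35116 windows of all genes. CCAAT, also read on both strands, was present in 22 of the 36 (61.1%) against 34.6%, and both were present in 11 (30.6%) against 6.38%. Neither motif contains the other. The first motif was found in 5 of the 8 risen genes that have a window (CENPA, CENPF, CENPN, HJURP and NUF2) and in 10 of the 23 other tested genes. So members with the first motif were found among genes that rose and among genes that did not pass. CENPI and CENPE, which rose, held neither motif in their windows, and a match is a description of letters, not a binding site. The NUF2 window held no CCAAT. Windows are shown for 4 genes that rose and for SPC25, which holds the first motif and did not pass, with matches in capitals. They lie at chr2:26785806-26786105 (plus strand), chr1:214602945-214603244 (plus), chr1:163321704-163322003 (plus), chr2:233854486-233854785 (minus) and chr2:168890381-168890680 (minus).
CENPA: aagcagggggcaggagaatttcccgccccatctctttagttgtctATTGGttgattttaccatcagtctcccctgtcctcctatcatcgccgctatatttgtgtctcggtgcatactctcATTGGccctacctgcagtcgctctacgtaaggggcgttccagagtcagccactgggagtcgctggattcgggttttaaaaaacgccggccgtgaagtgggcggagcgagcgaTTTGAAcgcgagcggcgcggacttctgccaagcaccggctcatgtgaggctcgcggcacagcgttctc
CENPF: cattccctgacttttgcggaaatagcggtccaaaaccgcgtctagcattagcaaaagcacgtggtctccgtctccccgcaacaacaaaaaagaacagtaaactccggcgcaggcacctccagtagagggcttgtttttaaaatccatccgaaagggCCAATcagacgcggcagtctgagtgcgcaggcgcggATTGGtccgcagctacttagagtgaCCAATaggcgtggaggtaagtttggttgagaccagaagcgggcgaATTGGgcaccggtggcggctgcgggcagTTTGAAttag
NUF2: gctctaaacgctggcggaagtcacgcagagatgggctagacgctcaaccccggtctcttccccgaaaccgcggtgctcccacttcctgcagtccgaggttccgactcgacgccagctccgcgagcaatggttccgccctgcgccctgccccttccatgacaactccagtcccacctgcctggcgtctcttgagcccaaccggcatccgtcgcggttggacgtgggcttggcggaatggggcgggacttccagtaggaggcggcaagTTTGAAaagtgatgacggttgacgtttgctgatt
HJURP: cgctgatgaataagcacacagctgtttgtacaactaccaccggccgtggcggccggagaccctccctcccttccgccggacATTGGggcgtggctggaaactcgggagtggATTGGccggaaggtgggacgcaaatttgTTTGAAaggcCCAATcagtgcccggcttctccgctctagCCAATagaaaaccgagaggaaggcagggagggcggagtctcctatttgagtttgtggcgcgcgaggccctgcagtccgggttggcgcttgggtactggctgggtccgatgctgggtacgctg
SPC25: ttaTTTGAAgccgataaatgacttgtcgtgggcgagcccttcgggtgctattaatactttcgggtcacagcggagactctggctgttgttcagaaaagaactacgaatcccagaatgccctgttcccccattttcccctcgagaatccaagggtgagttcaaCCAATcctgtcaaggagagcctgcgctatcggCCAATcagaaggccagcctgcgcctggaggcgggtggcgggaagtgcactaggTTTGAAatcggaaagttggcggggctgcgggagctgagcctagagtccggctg

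CENP-A and its loading factors were measured first, because they define the centromere. CENPA (Entrez 1058, transcript of 1424 bases) had 22.9 and 19.5 CPM in libraries 1 and 2 and 9.45 CPM in the control. Both labelled libraries stood well above the control, and CENPA was called higher (edgeR adjusted p = 0.000672) at a log2 fold change of 1.17, SE 0.27. Counts were low, at 120, 99 and 52, so the ratio to the control of 2.43 in library 1 carried a 95% counting interval of 1.74 to 3.43. HJURP, the chaperone that brings new CENP-A to the centromere, had 71.3, 73.9 and 52.1 CPM. Its rise was smaller (log2 fold change 0.48, SE 0.18, edgeR adjusted p = 0.0422), and once the length trend was taken out the value was 0.48 and did not pass (edgeR adjusted p = 0.056). MIS18A and OIP5, subunits of the complex that primes the centromere for loading, did not pass, at log2 fold changes of 0.05 and 0.33 (edgeR adjusted p = 0.889 and 0.399). OIP5 overlaps the antisense gene OIP5-AS1, which stood at a log2 fold change of 1.07, and no step of the protocol marks strand.

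Centromeric DNA is bound by CENP-B, and CENP-C links CENP-A chromatin to the outer kinetochore. CENPB was among the most abundant members per length, at 80.1, 83.4 and 97.5 FPKM in library 1, library 2 and the control. Its log2 fold change was -0.28 (SE 0.17, edgeR adjusted p = 0.213), with both labelled libraries below the control. CENPC had 14.7, 14.0 and 8.54 CPM and just missed the threshold (log2 fold change 0.75, SE 0.30, edgeR adjusted p = 0.0517). With DESeq2 size factors in the same edgeR fit it passed (edgeR adjusted p = 0.0496), so its call turned on the scaling. CENPV had 0, 2 and 4 counts and was not tested. These counts are at or near the floor of 3 counts taken here (0.582, 0.586 and 0.54 CPM), so no fold change is given.

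CENPI, a subunit of the CENP-HIKM complex, had 17.01 and 17.15 CPM in the labelled libraries and 3.81 CPM in the control, the largest fold change of the set (2.16, SE 0.34, edgeR adjusted p = 2.76e-06). Its control value rested on 21.3 estimated counts, against 89.0 and 87.2, and the ratio in library 1 was 4.46 with a counting interval of 2.75 to 7.56. Its partners in the same complex did not follow. CENPH had 9.56, 13.0 and 14.0 CPM in library 1, library 2 and the control. CENPK had 6.499, 5.52 and 6.36 CPM, and CENPM had 7.65, 7.88 and 8.17 CPM. The 3 partners thus lay at log2 fold changes of -0.31 to -0.07, with edgeR adjusted p = 0.438, 0.903 and 0.899. The difference between CENPI and its partners was not tested.

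CENP-L and CENP-N form the pair that reads CENP-A nucleosomes, and both genes rose. CENPL had 43.8, 43.6 and 28.9 CPM (log2 fold change 0.60, SE 0.21, edgeR adjusted p = 0.0231). CENPN had 43.4, 41.4 and 28.5 CPM (0.57, SE 0.21, edgeR adjusted p = 0.0309). The pair had nearly the same counts and fold changes, but they parted once the length trend was removed. CENPL, at 2382 bases, then stood at 0.73 (edgeR adjusted p = 0.00722), and CENPN, at 4636 bases, stood at 0.34 and lost its call (edgeR adjusted p = 0.254).

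None of the 4 tested genes of the CENP-OPQU complex, which recruits the kinase PLK1, passed edgeR's test. CENPO had 62.5, 69.8 and 52.7 CPM, a log2 fold change of 0.33 with both labelled libraries above the control (edgeR adjusted p = 0.178). CENPU, the docking site for PLK1, stood at 0.18, CENPP at -0.03 and CENPQ at -0.11. Libraries 1 and 2 fell on opposite sides of the control for CENPP and CENPQ. In the histone-fold group CENP-TWSX, which binds DNA beside CENP-A, CENPT, CENPW and CENPX were all lower in both labelled libraries, but none passed. CENPW had 8.60, 8.28 and 12.5 CPM (log2 fold change -0.57, SE 0.31, edgeR adjusted p = 0.159). CENPX had 60.8, 64.0 and 83.4 CPM (-0.42, SE 0.18, edgeR adjusted p = 0.0637), and CENPT had 20.8, 23.5 and 26.3 CPM (-0.25). CENPW and CENPX have the shortest transcripts in the set apart from SPC24, at 567 and 782 bases. With the length trend removed they stood at 0.05 and 0.11.

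**Figure D2:**
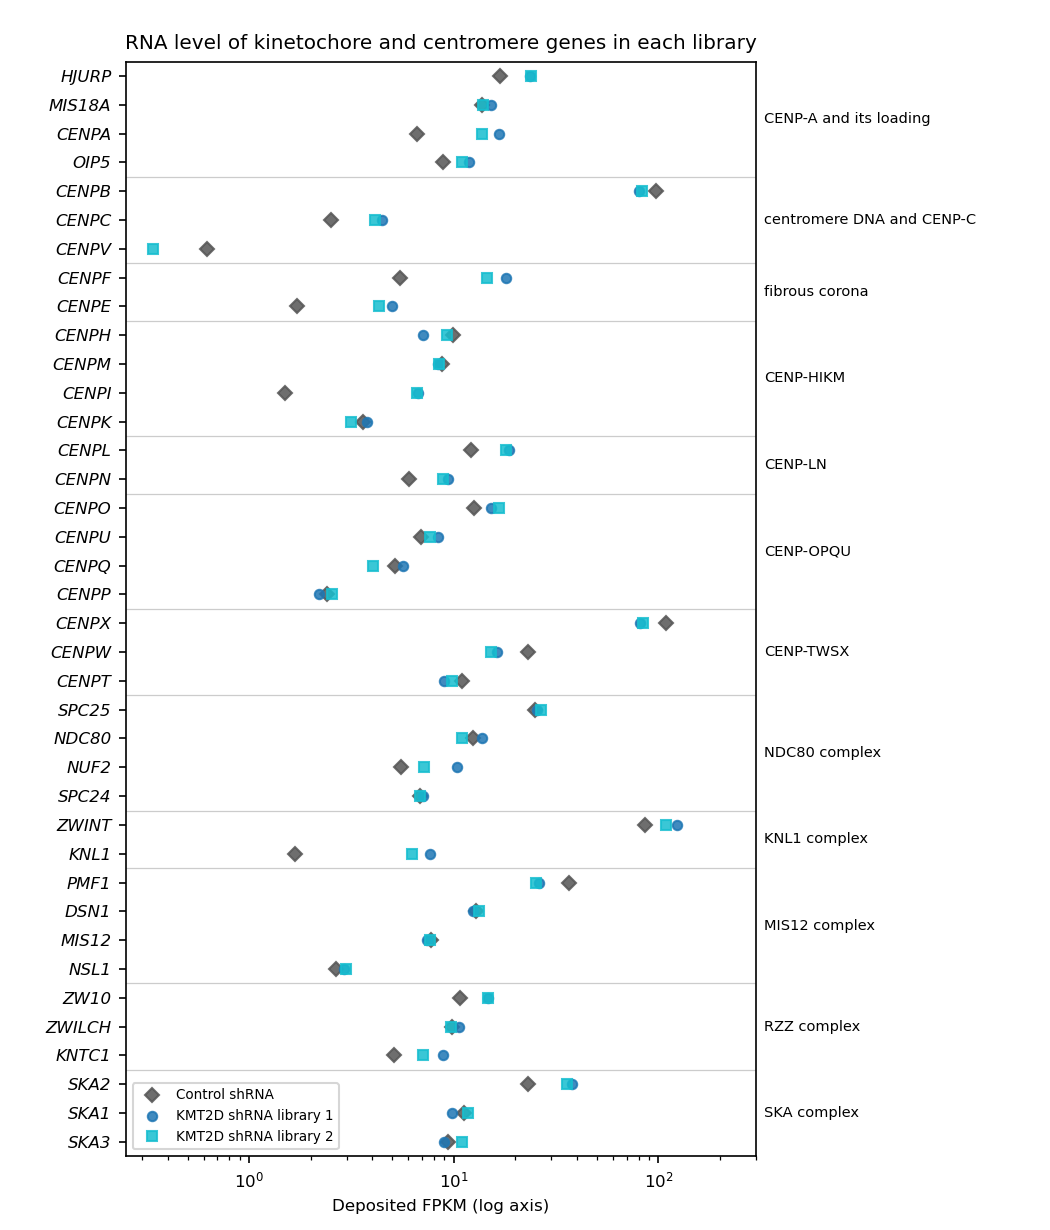
Deposited FPKM (x axis, log scale) is drawn for all 38 genes (y axis), ordered by subcomplex, in the control (diamonds), library 1 (circles) and library 2 (squares), and the value of 0 for CENPV in library 1 is not drawn. CENPX, CENPB and ZWINT lie at 80.1 to 123 FPKM in every library, and the labelled libraries lie to the right of the control for CENPI, KNL1, CENPE, CENPF and CENPA.

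Within the outer kinetochore the KNL1 gene moved most. KNL1, the scaffold that recruits the BUB checkpoint proteins, had 57.9 and 48.5 CPM in the labelled libraries and 13.1 CPM in the control. The log2 fold change was 2.02 (SE 0.23, edgeR adjusted p = 1.9e-09), from 303, 246 and 72 counts. ZWINT, its binding partner, was the most abundant member by mean FPKM (123, 109 and 85.9 FPKM). It did not pass as fitted (log2 fold change 0.41, SE 0.17, edgeR adjusted p = 0.0661), although both labelled libraries were above the control. With the length trend removed ZWINT did pass, at 0.68 (edgeR adjusted p = 0.00301). Its transcript is 1697 bases long, and the nearest 200 tested genes by length had a median of -0.23. CENPX and CENPB, given above, were next in abundance.

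The NDC80 complex, the main microtubule coupler, showed a call in 1 of its 4 genes. NUF2 had 19.7 CPM in library 1, 14.4 in library 2 and 10.4 in the control (log2 fold change 0.72, SE 0.28, edgeR adjusted p = 0.0461). That call held in only 3 of the 11 alternatives. The libraries labelled KMT2D shRNA differed from each other by 0.44 on the log2 scale for NUF2, the largest such gap in the set, and in library 2 alone the counting interval of the ratio was 0.969 to 2. NDC80, its partner in the dimer that touches the microtubule, had 30.01, 24.4 and 27.8 CPM, above the control in library 1 and below it in library 2. SPC24 and SPC25, the dimer that faces the chromosome, had log2 fold changes of 0.002 and 0.04 (edgeR adjusted p = 0.998 and 0.904). SPC24 rested on 22 to 24 counts per library, so its SE was 0.46.

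The MIS12 complex, which joins the inner to the outer kinetochore, gave the call in the lower direction. PMF1 had 28.5 and 27.6 CPM against 39.96 CPM in the control (log2 fold change -0.51, SE 0.20, edgeR adjusted p = 0.0494). That call was lost in all 11 alternatives, with adjusted p from 0.0528 to 0.952, and with the length trend removed the value was -0.09. PMF1 also shares reads with the read-through gene PMF1-BGLAP, which held 19.01, 18.71 and 47.5 estimated counts and a log2 fold change of -1.24, so the split between the genes is uncertain. MIS12 and DSN1 had log2 fold changes of -0.07 and 0.01. NSL1 had 38.04, 40.01 and 35.8 CPM and a log2 fold change of 0.12 (edgeR adjusted p = 0.681). Its transcript, at 13158 bases, is the longest of the set, and with the length trend removed NSL1 turned to -0.64 (edgeR adjusted p = 0.0163).

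The SKA and RZZ complexes each held 1 call among 3 genes as fitted, and differences between their subunits were not tested. In the SKA complex, which helps NDC80 track shrinking microtubules, SKA2 rose from 70.3 CPM to 112 and 109 CPM (log2 fold change 0.65, SE 0.18, edgeR adjusted p = 0.00449). SKA1 had 28.5, 34.5 and 32.9 CPM and SKA3 had 25.8, 32.5 and 27.6 CPM, and neither passed (-0.06 and 0.08). For both, library 1 lay below the control and library 2 above it. In the RZZ complex, which brings dynein and the MAD proteins to kinetochores, KNTC1 (also known as ROD) had 61.2, 50.3 and 36.5 CPM (0.61, SE 0.20, edgeR adjusted p = 0.0148). KNTC1 has a transcript of 6965 bases, and with the length trend removed it stood at 0.17 and did not pass (edgeR adjusted p = 0.594). ZW10 had 43.2, 43.9 and 32.3 CPM (0.43, edgeR adjusted p = 0.101) and ZWILCH had 33.8, 31.5 and 31.8 CPM (0.04). With the length trend removed ZW10 stood at 0.45, above KNTC1, and did not pass either (edgeR adjusted p = 0.112).

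Both genes of the fibrous corona, the outermost layer, rose. CENPF, a large coiled-coil protein that also binds dynein regulators, had 185 and 153 CPM against 57.8 CPM in the control (log2 fold change 1.55, SE 0.19, edgeR adjusted p = 1.24e-08). CENPE, the kinesin that carries chromosomes to the spindle equator, had 43.0 and 37.8 CPM against 15.1 CPM (1.42, SE 0.23, edgeR adjusted p = 4.09e-06). The control lay well below both labelled libraries for each gene. With the length trend removed CENPF stood at 0.90 and CENPE at 0.87, and both still passed (edgeR adjusted p = 0.000177 and 0.00387).

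Fold change rose with transcript length in the set, as it did over all tested genes. Across the 37 tested members the Spearman coefficient of fold change with length was 0.57, and across all 14016 tested genes it was 0.47. These coefficients describe genes within the same libraries, which share a control, and genes are not independent replicates. Among the 5 members over 5000 bases (KNL1, CENPE, CENPF, KNTC1 and NSL1), 4 rose, and 42.1% of all tested genes of that length were called higher. The 9 members under 1500 bases held 1 gene that rose, CENPA, and 1 that fell, PMF1, where 2.57% of all tested genes of that length were called higher and 36.9% lower. Their median log2 fold change was -0.07 against -0.45 for all tested genes of that length. The 200 tested genes nearest in length had median log2 fold changes of 0.55 for KNL1, 0.56 for CENPE and 0.73 for CENPF, and of -0.10 for CENPI and -0.33 for CENPA. KNL1, CENPE and CENPF thus lay above genes of like length by less than their full fold change, while CENPI and CENPA lay above them by more. With the trend removed the coefficient over the members was 0.05, their median was 0.28 against 0.01 over all genes, and 26 of 37 lay above the control in both libraries (70.3%, against 41.3% of all tested genes). Both libraries then lay below it for 4 members (40.3% of all genes) and on opposite sides for 7 (18.4%).

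**Figure D3:**
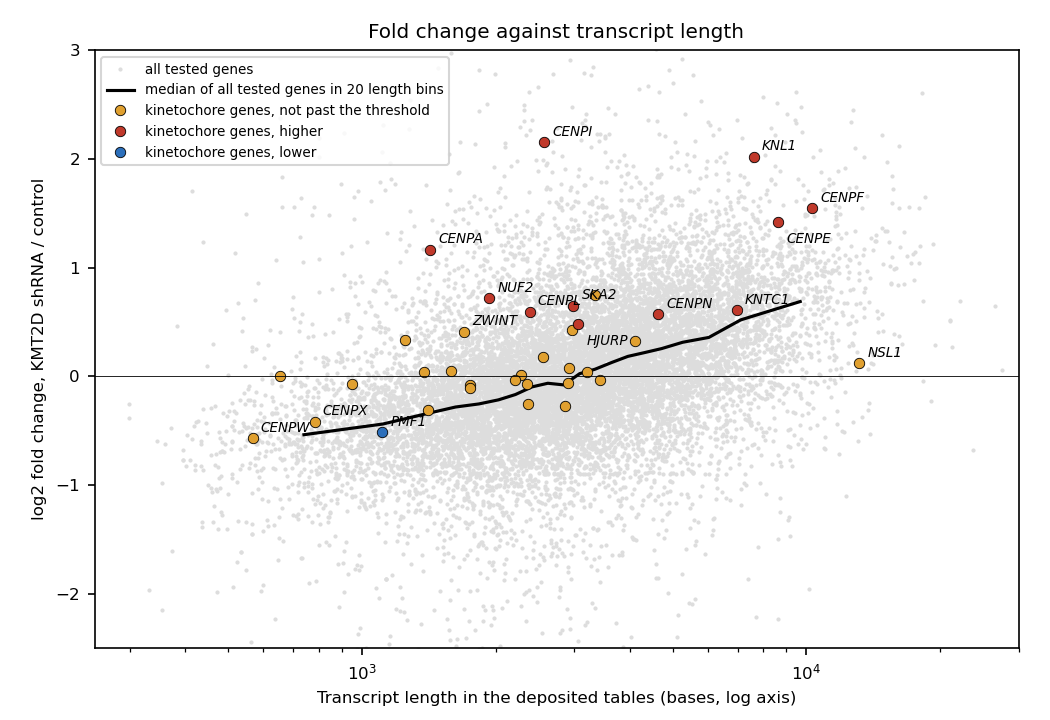
The log2 fold change of the libraries labelled KMT2D shRNA over the control (y axis) is plotted against transcript length (x axis, log scale) for all tested genes (grey), except 209 outside the drawn range, and for the members (large points). The black line, the median in 20 length bins, rises with length, and CENPI and CENPA stand farther above it than their neighbours in length.

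**Figure D4:**
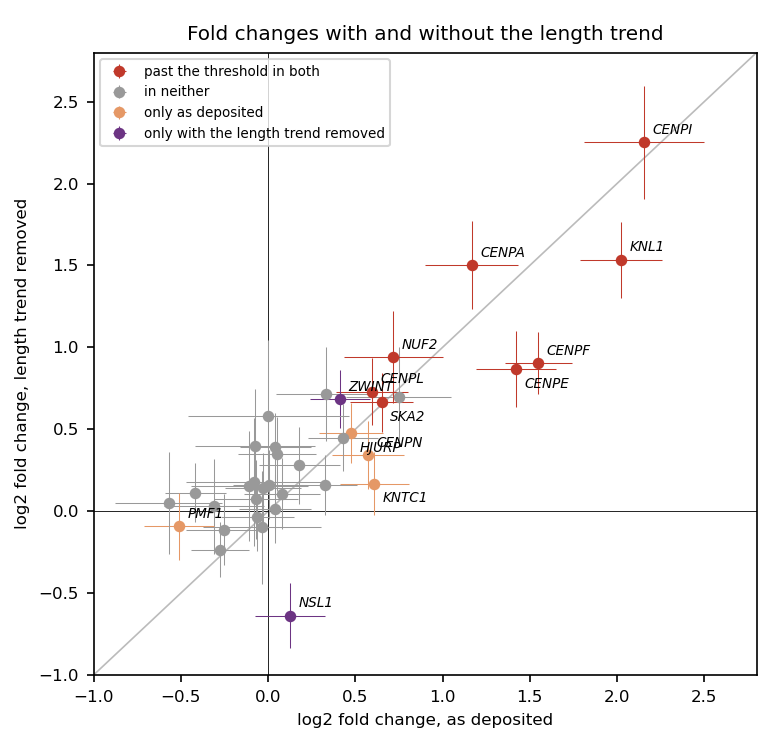
Each point is 1 of the 37 tested genes, with its log2 fold change before (x axis) and after (y axis) the length trend was removed, bars give SE and the diagonal marks equal values. KNL1, CENPF, CENPE and KNTC1 fall below the diagonal, CENPA and ZWINT rise above it, and NSL1 crosses 0 to -0.64.

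With the trend of GC content removed together with that of length, 7 members rose: CENPA, CENPE, CENPF, CENPI, KNL1, SKA2 and ZWINT. This compares with 7.06% of all genes called higher, and NSL1 was called lower (-0.61, edgeR adjusted p = 0.0467) where 6.59% of all genes were. The genes called higher in all 3 fits were CENPA, CENPE, CENPF, CENPI, KNL1 and SKA2. Of these, CENPI, KNL1 and CENPE had the lowest FPKM of the tested members in the control, at 1.49, 1.68 and 1.71 FPKM. In library 1 they stood at 6.71, 7.64 and 5.00 FPKM, where CENPP, NSL1, CENPK and CENPC all lay lower, at 2.20 to 4.44 FPKM. The control library enters both the low level and the fold change, so these are not separate observations.

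The libraries labelled KMT2D shRNA were close to each other. Their log2 values differed by a median of 0.09 over the members and of 0.18 over all tested genes, without regard to sign. Library 1 was the higher for 21 of the 37, and for 50.1% of all tested genes. The widest gaps were at NUF2, CENPQ and CENPH, which are sparsely counted, with 0.44 and 0.44 higher in library 1 for NUF2 and CENPQ and a difference of -0.43 for CENPH. CENPF, KNL1 and KNTC1 were higher in library 1 by 0.28, 0.25 and 0.28. At a ratio of 1.5-fold or more, 11 members were above the control in library 1 and 8 in library 2, against 18.9% and 17.8% of all tested genes, and no member was that far below in either. In all genes 16.8% and 16.1% were. After removal of the length trend, 11 members in library 1 (14.7% of all genes) and 12 in library 2 (13.6%) were that far above. NSL1 alone in library 1 (13.8%) and in library 2 (12.8%) was that far below.

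Genes that work with the kinetochore were read from lists written with earlier results of these data known, and their counts stand beside 16.5% of all tested genes called higher and 14.5% called lower. Among 6 genes of the chromosomal passenger complex and the shugoshins, which correct attachments and protect cohesion, 4 rose and none fell (median log2 fold change 0.79). INCENP, the scaffold of the passenger complex, rose from 34.5 to 80.1 ± 3.79 CPM (SD, n = 2), or by 1.21 on the log2 scale (edgeR adjusted p = 2.91e-06). BIRC5 (survivin) rose by 0.92 and CDCA8 (borealin) by 0.74, while AURKB, the kinase they target to centromeres, stood at -0.02 and was named after its value was seen. Among 8 spindle checkpoint genes 2 rose and 1 fell (median 0.34): the kinase genes BUB1B and TTK rose by 0.69 each, and MAD1L1 fell by 0.55 on the log2 scale (edgeR adjusted p = 0.0344). MAD1L1 no longer passed after removal of the length trend (edgeR adjusted p = 0.0864). With that trend removed 3 of the 8 rose and none fell (median 0.38), against 10.0% and 9.5% of all tested genes. MAD2L1, named after its value was seen, was then called higher (0.86, edgeR adjusted p = 0.00367). Of 12 microtubule-end and motor partners 6 rose and none fell (median 0.55). After removal of the length trend 5 rose, the median was 0.34, and CLASP2 and CKAP5, named after their values were seen, no longer passed (edgeR adjusted p = 0.4003 and 0.2796). DYNC1H1, the heavy chain of dynein, rose by 1.30 (0.50 once the length trend was taken out), the astrin gene SPAG5 by 1.03 and the kinesin gene KIF18A by 0.95. ITGB3BP (CENP-R) and CENPS, of the centromere network, stood at -0.28 and -0.21 and did not pass.

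All 8 G2/M markers rose in the labelled libraries, where 16.5% of all tested genes did, with a median log2 fold change of 0.60. Among them TOP2A rose by 1.83, MKI67 by 1.45 and CCNB2 by 0.61, and MKI67, with a transcript of 11664 bases, stood at 0.74 after removal of the length trend. Of 11 G1/S markers 2 rose and none fell (median 0.18), a share near that of all tested genes, namely the helicase subunit genes MCM6 by 1.10 and MCM4 by 0.55. MCM4 was at 0.30 with the length trend removed and did not pass (edgeR adjusted p = 0.243). In that fit 3 of the 11 rose (median 0.24), against 10.0% of all tested genes, and all 8 G2/M markers rose. PCNA (0.79) and CCNE1 (1.05), named after their values were seen, then passed (edgeR adjusted p = 0.000814 and 0.045). Among 15 transcription factors of cell cycle genes 8 rose and 1 fell (median 0.51). RBL1 rose by 1.02, E2F8 by 1.22 and LIN9, a MuvB subunit, by 0.89, and the gene that fell was LIN37, another MuvB subunit, by 0.78 on the log2 scale (edgeR adjusted p = 0.0454). LIN37 was named after its value was seen, and without the length trend its edgeR adjusted p was 0.421. The control library also stood apart in interferon genes: all 5 markers were lower in the labelled libraries, with a median of -4.89, among them IFI6 at -5.24 and ISG15 at -4.96. The part of the cell cycle markers and of the interferon state in the kinetochore values was not tested.

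**Figure D5:**
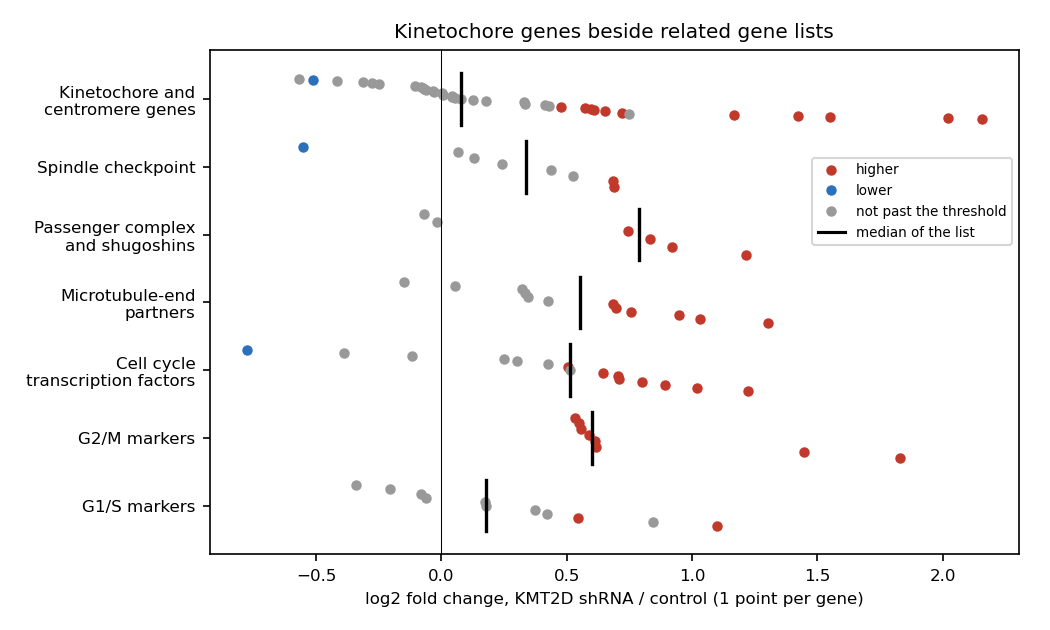
Each point is the log2 fold change (x axis) of 1 gene in the kinetochore and centromere set and in 6 related lists (y axis), coloured by its call, with the list median as a black bar. All 8 G2/M markers lie above 0.5, and the kinetochore set spreads from -0.57 to 2.16 around a median of 0.08.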

How the data were processed

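RNA of 3 PC-3 libraries was sequenced on a BGISEQ-500, per the labels. Polyadenylated RNA was selected and reverse transcribed with random primers, per the labels' protocols, which name no step that marks strand. The submitters' processing notes name hg19, HISAT and Bowtie2. Their roles and versions, and the tool that counted reads, are not given in the sources that were used. The authors deposited 1 table per library with expected counts (estimated reads per gene, not normalized) and FPKM (scaled by length and library total), per the file headers. About 68.0% of listed counts were whole numbers. Of the members, 13 had fractional counts, so some of their reads were shared with other genes or transcripts. A gene left out of a table was taken as 0.

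Tables were joined on the Entrez identifier. Names came from a RefSeq table of GRCh38.p14, which matched 99.5% of identifiers. Expected counts were rounded and tested over all genes with edgeR 4.0.16 in R 4.3.3: default filter on low counts, TMM scaling, quasi-likelihood F test on group, Benjamini-Hochberg adjustment, threshold 0.05, with 1 residual degree of freedom. SE values come from the F statistic. For single-library ratios, 2 was the prior count behind log2 CPM, and counting intervals are exact (Clopper-Pearson, 95%). These and the floor of 3 counts cover counting error only, because reads were amplified without molecular identifiers. The chi-square between libraries 1 and 2 averaged 5.31 a gene, more than sampling alone gives. Each was counted as a sample, although this value cannot show that they were separate cultures. The length trend was a loess fit (span 0.5) of each labelled library's ratio to the control on log2 transcript length, entered as an offset. GC content came from GENCODE transcripts (96.1% of tested genes). Scripts were tested on simulated data.

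Some genes of the lists are not reported here. The members and lists were chosen with earlier results of these data known. All members were named, with full statistics for those past the threshold and for the 3 with the highest mean FPKM, and up to 3 genes past the threshold per related list, by the change in the less changed labelled library. Alternatives were DESeq2 1.42.0, limma 3.58.1 on FPKM, other scalings and filters, removal of trends and of each labelled library, and a loess span of 0.3, which was chosen after seeing the data.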

Additional observations from a re-analysis of the deposited data

How the results depend on the processing

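The count of members that rose (11) was 12 with DESeq2 size factors, 9 with the length trend removed at either loess span, and 9 at a mean of 5 CPM or more. It was 7 with the length and GC trends removed, 7 with library totals, 6 without a filter on low counts and 4 with the DESeq2 test. On FPKM limma called 1 member (CENPI) higher with a pseudocount of 1, 0 with 0.1 and 0 without a filter, but of all genes it called only 39 and 14 of 13301 and 0 of 18331 higher. With library totals 1849 of 14016 genes were called higher, and without a filter 1048 of 18258. With DESeq2 size factors 2355 of 14016 were, at a mean of 5 CPM or more 1960 of 11904, and at a span of 0.3 1265 of 14016. Members higher at an unadjusted p below 0.05 numbered 10, 10 and 11 in limma and 14 in edgeR as fitted. Of all genes 2224 and 2149 of 13301 and 2299 of 18331 were higher at that level in limma, and 2969 of 14016 in edgeR. The 1 member that fell became 0 with DESeq2 size factors, library totals, both other filters, the DESeq2 test and the 3 limma settings. Of all genes 1975 were called lower with DESeq2 size factors, 1396 with library totals, 849 without a filter and 1682 at 5 CPM. The DESeq2 test called 456 lower, and limma 151, 56 and 0. At an unadjusted p under 0.05, 2 members were lower in edgeR as fitted and with those scalings and filters, 2, 2 and 3 in limma and 0 in DESeq2. Lower at that level, of all genes, were 2742 of 14016 in edgeR as fitted and 2372 to 2699 with those scalings and filters. In limma 1977 and 1728 of 13301 and 2277 of 18331 were, and in DESeq2 1023 of 14016. With trends removed the lower call was that of NSL1, which reversed from 0.12 to -0.64 with the length trend removed, to -0.64 at a span of 0.3 and to -0.61 with both trends removed. The median log2 fold change of members was 0.08 and moved to 0.28, 0.29 and 0.22 in those settings, and it ran from 0.0982 to 0.13 when either labelled library was left out. KMT2D reversed from 0.29 to -0.66 without the length trend, where edgeR's adjusted p was 0.00449, and to -0.65 at a span of 0.3, and with both trends removed it was -0.53 and did not pass (edgeR adjusted p = 0.0567). CENPA, CENPE, CENPF, CENPI, KNL1 and SKA2 passed in each edgeR setting. Without 1 labelled library no test was possible, since 1 library then stood against 1, and the control could not be left out. No paired analysis was possible because the control is a single library without a replicate number. Depth limited the precision most for SPC24, whose SE of 0.46 was the widest among the tested members.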
